A study of Mus musculus with 25 samples.

Results

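Binding locations of GATA1 and TAL1 that fell inside exons were examined in mouse erythroid cells. A location was kept where its base lay in an exon of a protein-coding transcript of the GENCODE annotation for mm9 and over 1 kb from the start site of every such transcript. This left 680 of 25499 locations. GATA1 had 266 of its 10290, with 135 in coding exons, 121 in 3' untranslated regions (3' UTRs) and 10 in 5' UTRs. TAL1 had 414 of its 15209, with 194 in coding exons, 211 in 3' UTRs and 9 in 5' UTRs. A base that is coding in any transcript was counted as coding.

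The locations come from ChIP-exo, in which an exonuclease trims immunoprecipitated DNA to the edge of the cross-linked protein. GATA1 was immunoprecipitated from G1E-ER4 cells at 0, 3 and 24 h of estradiol treatment (3 libraries each), and 1 further GATA1 library was made from G1E cells. The TAL1 libraries came from G1E-ER4 cells at 0 h (5 libraries), 3 h and 24 h (3 each) and from G1E cells (4 libraries). G1E cells are a line of erythroid progenitors grown from embryonic stem cells of strain 129 in which Gata1 was knocked out, and G1E-ER4 cells carry in addition a GATA1 fused to the ligand-binding part of the estrogen receptor, so that all treated cells are descendants of 1 Gata1-deficient line and the GATA1 measured in them is the fusion. The labels give 10 nM estradiol, and the methods text gives a higher concentration. The lists hold 1 base position per location, pooled over times and libraries, with no tag count and no replicate. The depth behind a location is therefore unknown, and no value can be given by time or library.

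GATA1 is a zinc finger protein that binds WGATAA, that is AGATAA or TGATAA on either strand, and activates and represses genes during red cell maturation. TAL1 is a basic helix-loop-helix protein that binds the E-box CANNTG together with an E protein, and that is also held on DNA next to GATA1 through the bridging proteins LMO2 and LDB1. Most of their sites are known from introns and from DNA between genes. Exons are also kept in the mature transcript, and in coding exons the sequence is bound by the genetic code.

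Of the exonic GATA1 locations with a TAL1 location under 40 bp away, 28 had a WGATAA with the dinucleotide TG ending 7 or 8 bp upstream of it, which is the composite of a short E-box remnant and a GATA site. The composite lay wholly inside the exon at 12 of these locations in coding exons, and at 13 in 3' UTRs. The 12 in coding exons are shown here as 30 bases of mm9 along the strand of the GATA site, since both motifs lie in bases that are also read as codons. Capitals mark TG and WGATAA.
Dennd1a (chr2:37982061-37982090, plus strand): aagcagctctTGgctcctgaAGATAAgcgg
Trpm7 (chr2:126642551-126642580, plus strand): tgaaactataTGgctgaggaTGATAAgagg
Trim33 (chr3:103157650-103157679, plus strand): gcagttgcatTGtactttgaAGATAAactc
Slc35a3 (chr3:116397402-116397431, plus strand): caaccactgcTGtagaagacAGATAAcgag
P2rx7 (chr5:123102776-123102805, minus strand): gaccttggtgTGcacggagcTGATAAcagg
Rfc2 (chr5:135069181-135069210, minus strand): catgtctcccTGggctgtgaAGATAAtggc
Nsmce1 (chr7:132615721-132615750, minus strand): tttccaggaaaTGcgactgtAGATAAgctg
Clgn (chr8:85947090-85947119, plus strand): tacagatggcTGggaactgaAGATAAtggt
Ppm1d (chr11:85153113-85153142, plus strand): aggcagcgtaTGcttcgggcAGATAAcaca
Plekhg3 (chr12:77677249-77677278, plus strand): gtgcttagccTGgagggcagTGATAAgggc
Rnase6 (chr14:51750254-51750283, plus strand): caactagtgccTGtgcacttAGATAAgatt
Cog3 (chr14:76129090-76129119, minus strand): cctggagatcTGgcatatccTGATAAgcta

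TG ended 8 bp upstream of WGATAA in 10 of the 12 and 7 bp upstream in Nsmce1 and Rnase6. The GATA site read in the direction of the gene in 7 of them (Trim33, Nsmce1, Clgn, Ppm1d, Plekhg3, Rnase6 and Cog3) and against it in 5. In none of the 12 did the TG complete a full CANNTG. Trim33, an E3 ubiquitin ligase that is needed for red cell formation in zebrafish, had its composite in the last of 20 exons, with GATA1 at chr3:103157650 and TAL1 at 103157633, and 1 GATA1 peak pair within 100 bp. Clgn, a chaperone of the endoplasmic reticulum in testis, had both factors at the same base, 85947086, in exon 11 of 15, with 5 GATA1 peak pairs within 100 bp. In Slc35a3, which carries UDP-N-acetylglucosamine into the Golgi, GATA1 lay at 116397413 and TAL1 at 116397402 in exon 3 of 9. Rfc2 encodes a subunit of the clamp loader of DNA replication, Nsmce1 a subunit of the SMC5/6 complex, Ppm1d a phosphatase that dampens p53 signalling, Cog3 a tether of Golgi vesicles, Trpm7 a channel fused to a kinase, P2rx7 an ATP-gated channel, Dennd1a and Plekhg3 exchange factors of small GTPases, and Rnase6 a secreted ribonuclease. None of the globin or heme synthesis genes was among the 12.

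Of the 13 locations in 3' UTRs, 5 of the first 6 by position are shown for comparison in the same form, with 4 composites in 3 genes. For Samd7 the first composite served 2 GATA1 locations, at 30664724 and 30664737, and the second another location, at 30664800.
Erv3 (chr2:131679617-131679646, minus strand): gaaaaatgctTGcttgatcaAGATAAttaa
Samd7 first (chr3:30664739-30664768, minus strand): tagacgctgcTGtggctaggAGATAAggtg
Samd7 second (chr3:30664822-30664851, minus strand): agttccaactTGttacacacAGATAActtt
Tiparp (chr3:65358788-65358817, minus strand): aaataattgtgTGgaagcccTGATAAgtgc
Tiparp encodes a member of the poly(ADP-ribose) polymerase family, and Samd7 a repressor known from photoreceptors of the retina.

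Exons took a small share of the locations and of the genome. Of the 9222 GATA1 locations over 1 kb from a start site 2.88% were exonic (95% exact binomial interval, 2.55 to 3.25%), and of the 14074 TAL1 locations 2.94% (2.67 to 3.23%), against 2.20% of the bases at that distance. Per megabase, GATA1 had 4.64 locations in coding exons (95% Poisson interval, 3.89 to 5.49) and 4.82 in 3' UTRs (4.00 to 5.76), against 5.88 in introns (5.72 to 6.04) and 2.42 outside protein-coding genes. TAL1 had 6.66 per megabase in coding exons (5.76 to 7.67) and 8.40 in 3' UTRs (7.31 to 9.62), against 8.49 in introns (8.30 to 8.68) and 3.95 outside genes. The intervals of coding exons lay below those of introns for both factors, while those of 3' UTRs overlapped them. The 5' UTRs had 16.2 GATA1 locations per megabase (7.79 to 29.9) and 14.6 TAL1 locations (6.69 to 27.8), from 10 and 9 locations in only 0.616 Mb. These intervals cover counting error and treat locations as independent, although neighbors can come from the same element, and densities were not tested.

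**Figure D1:**
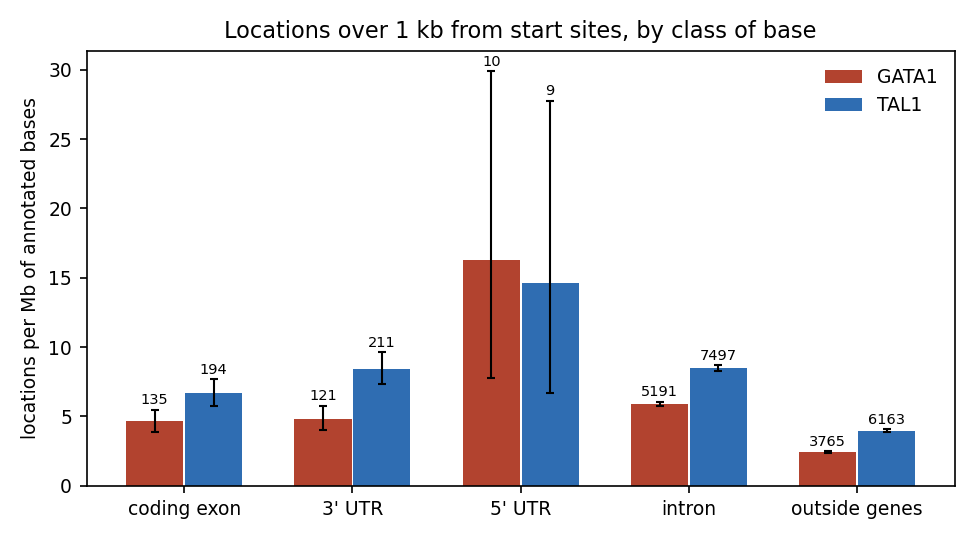
Locations per megabase of annotated bases over 1 kb from start sites, for GATA1 and TAL1 in coding exons, 3' UTRs, 5' UTRs, introns and outside protein-coding genes. Bars are densities, whiskers are 95% Poisson intervals and the numbers are counts of locations. For both factors the coding exon bar is below the intron bar, and the 5' UTR bars have the widest intervals.

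The share of exonic locations with a GATA site did not differ from that in introns beyond its error, while exons as a whole hold fewer such sites. WGATAA lay within 40 bp of 89 of 135 GATA1 locations in coding exons (65.9%; 95% exact binomial interval, 57.3 to 73.9%) and of 81 of 121 in 3' UTRs (66.9%, 57.8 to 75.2%), against 3520 of 5191 in introns (67.8%, 66.5 to 69.1%). The odds ratio to introns was 0.918 for coding exons (95% interval, 0.640 to 1.32, p = 0.642, adjusted p = 0.903, Fisher's exact test) and 0.961 for 3' UTRs (0.655 to 1.41, adjusted p = 0.999, Fisher's exact test). For TAL1, WGATAA was near 93 of 194 locations in coding exons (47.9%) and 94 of 211 in 3' UTRs (44.5%), against 46.4% of 7497 in introns, with odds ratios of 1.06 (0.799 to 1.41) and 0.928 (0.705 to 1.22). Over all bases of a class, a window of the same 81 bp held WGATAA in 5.77% in coding exons, 8.28% in 3' UTRs and 7.05% in 5' UTRs, against 9.72% in introns and 11.0% outside genes. Coding exons thus had the lowest background of the classes and a share at GATA1 locations that differed from introns by no more than the interval above.

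**Figure D2:**
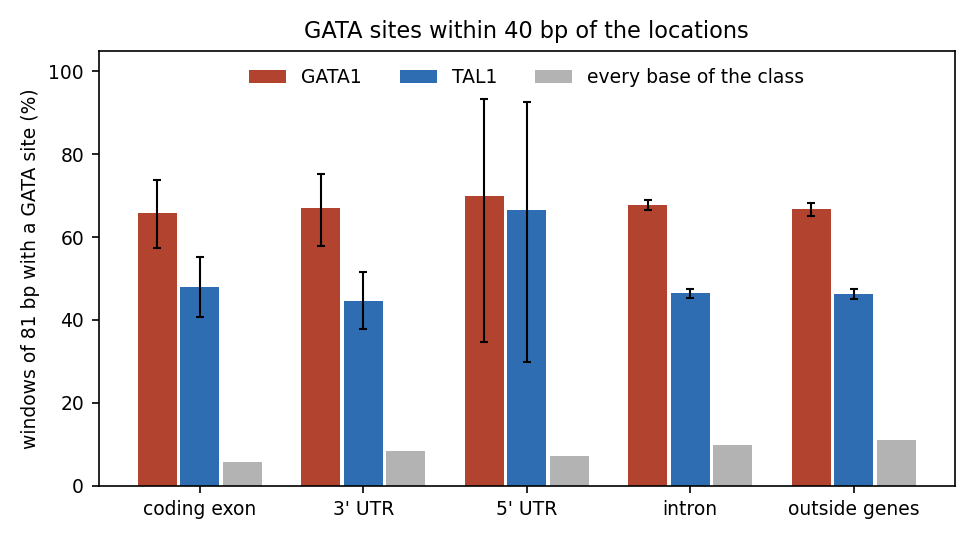
Share of 81-bp windows with a GATA site (WGATAA on either strand) around GATA1 and TAL1 locations by class, beside the share over every base of the class. Whiskers are 95% exact binomial intervals. GATA1 bars are between 65.9% and 70.0% in all 5 classes, TAL1 bars between 44.5% and 66.7%, and the bars for every base between 5.77% and 11.0%.

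Most of these sites were inside the exon itself. In coding exons the nearest WGATAA was wholly within the exon at 77 of 89 GATA1 locations and at 77 of 93 TAL1 locations, and at the others it lay over an exon end or in the flanking intron. In 3' UTRs it was within the exon at all 81 GATA1 and all 94 TAL1 locations with a site. The location itself stood mostly upstream of the site, as read along the site's own strand. Exonic GATA1 locations lay at a median of -5.5 bp from the centre of WGATAA (quartiles, -17.5 and 3.5 bp, n = 177), and 63.3% were upstream (55.7 to 70.4%), against -4.5 bp and 61.3% in introns. Exonic TAL1 locations lay farther upstream, at a median of -16.5 bp (-25.5 and -1.5 bp, n = 193), and 77.2% were upstream (70.6 to 82.9%), against -11.5 bp and 68.3% in introns (66.7 to 69.8%). Coding exons and 3' UTRs had close medians, of -6.5 and -4.5 bp for GATA1 and of -15.5 and -16.5 bp for TAL1. The difference between exons and introns in these distances was not tested.

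**Figure D3:**
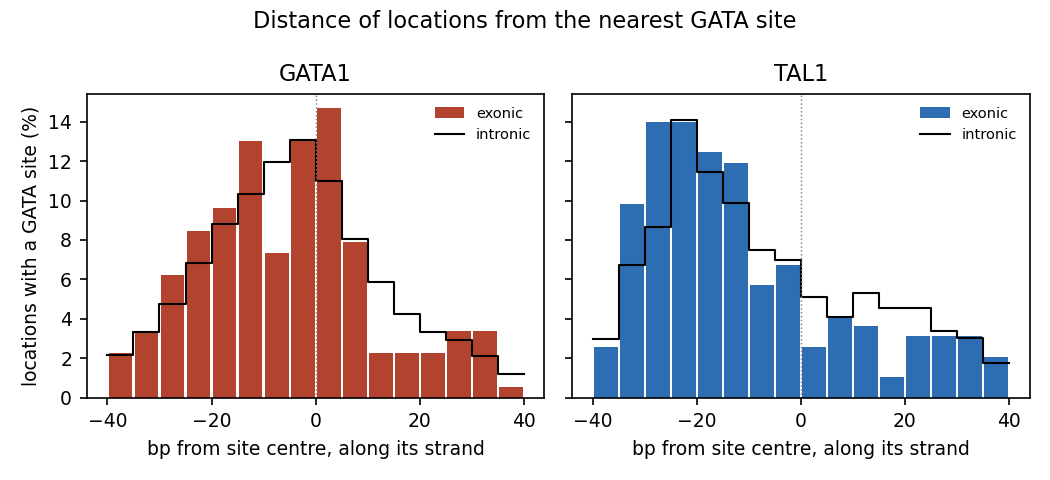
Distance of GATA1 and TAL1 locations from the centre of the nearest GATA site in bp, negative upstream along the strand of the site, in bins of 5 bp. Bars are exonic locations (177 for GATA1, 193 for TAL1) and the line is intronic locations, each as a share of those with a site. TAL1 bars are highest between -30 and -10 bp, and the highest 3 GATA1 bars are those of -15 to -10 bp, -5 to 0 bp and 0 to 5 bp.

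In coding exons the GATA site also has a reading frame. The 76 different sites of GATA1 locations that lay in coding sequence read in the sense direction in 45 cases (59.2%; 95% exact binomial interval, 47.3 to 70.4%), against 55.4% of all 22082 WGATAA in distal coding exons. The first base of the site was the last base of a codon in 31 of the sense sites, a frame in which GAT, the codon of aspartate, is read whole. It was the second base in 14, a frame that reads the isoleucine codon ATA. In the frame of the first base WGATAA holds a stop codon, so coding sequence leaves no room for it. By that construction 0 of 76 GATA1 sites, 0 of 75 TAL1 sites and 0 of all 22082 sites were in it. Among sense sites, the frame of aspartate took 68.9% for GATA1 (53.4 to 81.8%, n = 45) and 75.6% for TAL1 (60.5 to 87.1%, n = 45), against 70.0% of all sense sites. The antisense sites of GATA1 locations numbered 7, 11 and 13 by codon position, and those of TAL1 locations 5, 10 and 15. The interval of every frame held the share over all coding sites, for each factor. The factors shared 23 of these sites, so their shares are not independent of each other.

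**Figure D4:**
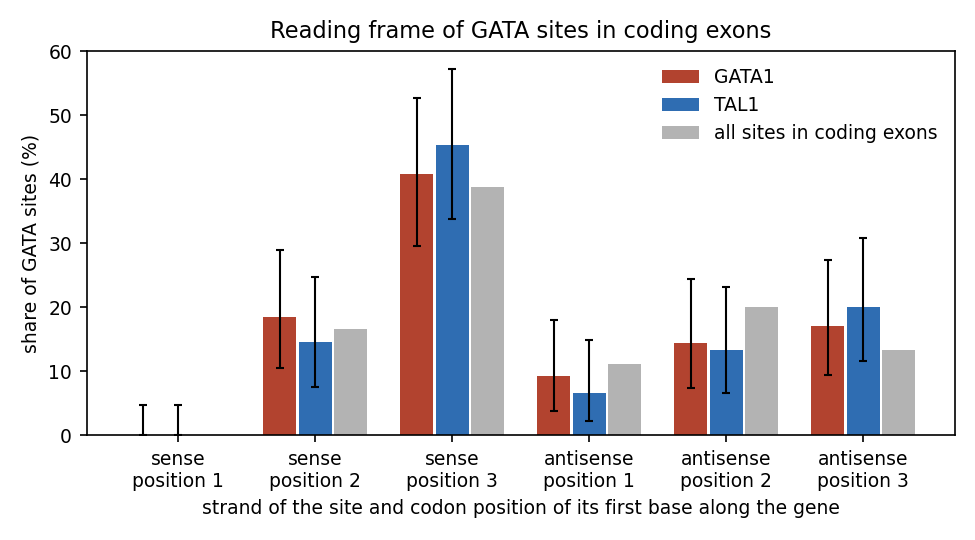
Share of GATA sites in coding exons by strand relative to the gene and by codon position of the first base along the gene, at GATA1 locations (76 sites) and TAL1 locations (75 sites), beside all 22082 such sites in coding exons over 1 kb from start sites. Whiskers are 95% exact binomial intervals. The sense sites at codon position 3 form the highest group, with 40.8% for GATA1, 45.3% for TAL1 and 38.8% for all sites, and no site is sense at position 1.

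The partner factor stood next to exonic and intronic locations at shares whose differences did not pass the test. A TAL1 location lay under 40 bp from 55 of 135 GATA1 locations in coding exons (40.7%; 32.4 to 49.5%) and 48 of 121 in 3' UTRs (39.7%; 30.9 to 49.0%), against 36.0% of the 5191 in introns. The odds ratios were 1.22 (0.862 to 1.73, adjusted p = 0.723, Fisher's exact test) and 1.17 (0.808 to 1.69, adjusted p = 0.783, Fisher's exact test). Seen from TAL1, GATA1 was under 40 bp away at 57 of 194 locations in coding exons (29.4%) and at 52 of 211 in 3' UTRs (24.6%), against 28.1% in introns, with odds ratios of 1.07 (0.780 to 1.46) and 0.838 (0.610 to 1.15). The median distance between the factors was 15 bp at cooccupied GATA1 locations in coding exons and 15 bp in 3' UTRs. The TAL1 partner was itself in a coding exon at 49 of the 55 and in an intron at 6, and it was in the 3' UTR at all 48. Where no TAL1 location was under 40 bp, a TAL1 peak pair or a location that MultiGPS alone had found was that close at 23 of 80 GATA1 locations in coding exons and at 21 of 73 in 3' UTRs. The same count of GATA1 beside TAL1 locations was 51 of 137 in coding exons and 53 of 159 in 3' UTRs.

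TG upstream of the GATA site went with TAL1. Among exonic GATA1 locations with WGATAA, 28 of 69 with TAL1 had TG 7 or 8 bp upstream (40.6%; 95% exact binomial interval, 28.9 to 53.1%), against 25 of 108 without TAL1 (23.1%; 15.6 to 32.2%). The odds ratio was 2.27 (1.18 to 4.37, p = 0.0182, Fisher's exact test, two-sided, a single test). In coding exons alone it was 13 of 37, against 12 of 52 (odds ratio 1.81, 0.710 to 4.59, p = 0.239, Fisher's exact test), and in 3' UTRs 13 of 29, against 12 of 52 (2.71, 1.02 to 7.18, p = 0.0493, Fisher's exact test). The 13 in 3' UTRs include 3 neighboring locations of Samd7, counted as independent. Those at chr3:30664724 and 30664737 share a composite and a TAL1 location. The alternative with 1 location per cluster was run only over all exonic locations together. A difference between these 2 classes was not tested. In introns TG was at 667 of 1354 such locations with TAL1 (49.3%; 46.6 to 52.0%), against 498 of 2166 without TAL1 (23.0%; 21.2 to 24.8%), and the difference between exons and introns was not tested. At these 28 locations TAL1 lay on the TG side of GATA1 in 11 (39.3%; 21.5 to 59.4%), at the same base in 1 and on the other side in 16. At all 69 exonic GATA1 locations with TAL1 and a site, it lay upstream in 33, at the same base in 1 and downstream in 35. These sides are between the called bases of the factors and not from the GATA site, and no share in introns is given for them. Measured from the site, 77.2% of exonic TAL1 locations with WGATAA lay upstream, as given above. A preference for a side was not tested.

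The E-box CANNTG was somewhat more frequent at 3' UTR locations, without passing the test. CANNTG lay within 40 bp of 58 of 121 GATA1 locations in 3' UTRs (47.9%) and 51 of 135 in coding exons (37.8%), against 39.4% in introns, with odds ratios of 1.42 (0.987 to 2.03, adjusted p = 0.410, Fisher's exact test) and 0.934 (0.657 to 1.33). For TAL1 it was near 109 of 211 in 3' UTRs (51.7%) and 87 of 194 in coding exons (44.8%), against 45.2% in introns, with odds ratios of 1.29 (adjusted p = 0.410, Fisher's exact test) and 0.985 (0.740 to 1.31). For the stricter CAGMTG, where M is A or C, the odds ratios in 3' UTRs were 1.02 for GATA1 and 1.31 for TAL1. In coding exons they were 0.995 and 1.58, and none of these passed. Windows over all bases held CAGMTG in 14.4% in coding exons and 9.82% in 3' UTRs, against 9.09% in introns. They held CANNTG in 37.5% in coding exons and 34.9% in 3' UTRs, against 34.7% in introns. With that background, a CANNTG within 40 bp is common at any base.

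Homotypic clusters, in which locations of the same factor are under 500 bp apart, reached into exons. Another GATA1 location was that near at 21 of 135 in coding exons (15.6%) and 18 of 121 in 3' UTRs (14.9%), against 12.5% in introns, with odds ratios of 1.29 (0.805 to 2.07) and 1.23 (0.738 to 2.04). For TAL1 it was 109 of 194 in coding exons (56.2%) and 127 of 211 in 3' UTRs (60.2%), against 63.5% in introns. The odds ratio was 0.738 for coding exons (0.554 to 0.984), with p = 0.0416 and adjusted p = 0.410 by Fisher's exact test, and 0.870 for 3' UTRs (0.658 to 1.15). Clusters at coding exons often spilled into introns, and the nearest TAL1 neighbor was exonic at 49 of the 109. In 3' UTRs it was exonic at 121 of the 127. The exons that held TAL1 had median lengths of 168.5 bp for coding locations and 2472 bp for 3' UTR locations. A neighbor under 500 bp away thus leaves a coding exon more easily, and a difference beyond exon length was not tested. The 194 TAL1 locations in coding exons came from 159 separate clusters or single locations, and the 211 in 3' UTRs from 128.

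Peak pairs, the cross-linking points found on both strands, numbered 2 or more within 100 bp at 85 of 135 GATA1 locations in coding exons (63.0%) and 63 of 121 in 3' UTRs (52.1%), against 61.0% in introns. The odds ratios were 1.09 (0.762 to 1.55) for coding exons and 0.694 (0.483 to 0.995, p = 0.0482, adjusted p = 0.410, Fisher's exact test) for 3' UTRs. For TAL1, 152 of 194 in coding exons (78.4%) and 152 of 211 in 3' UTRs (72.0%) had 2 or more, against 78.0% in introns, with odds ratios of 1.02 (0.723 to 1.44) and 0.727 (0.536 to 0.987, p = 0.0437, adjusted p = 0.410, Fisher's exact test). Of the 30 tests of 5 properties in 2 factors and 3 pairs of classes, 0 passed an adjusted p of 0.05 and 3 had an unadjusted p under 0.05, all given above. Coding exons and 3' UTRs were compared directly in 10 of them, with adjusted p between 0.496 and 1 (Fisher's exact test). The largest gap of these was in GATA1 peak pairs, with an odds ratio of 1.57 (0.950 to 2.58).

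**Figure D5:**
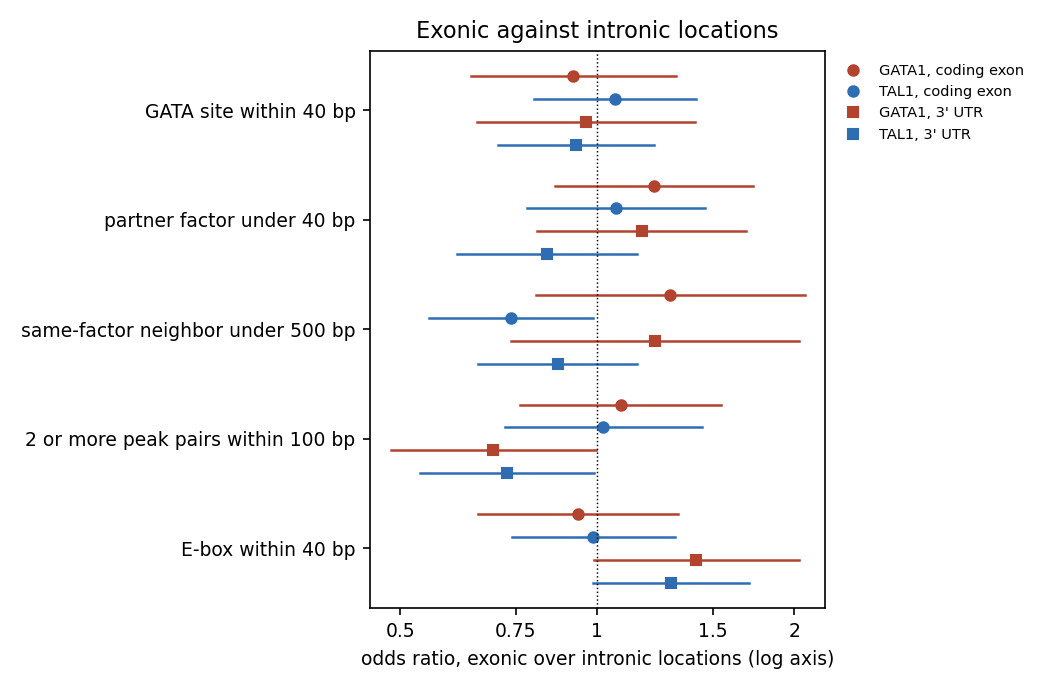
Odds ratios, on a log axis, of 5 properties at exonic over intronic locations of GATA1 and TAL1, for coding exons and 3' UTRs separately. Lines are 95% intervals and the dotted line marks an odds ratio of 1. All 20 odds ratios are between 0.694 and 1.42, and none passed after adjustment over 30 tests.

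Coding locations were mostly in internal exons, whose share of the coding bases was not counted. The 1 kb rule itself leaves out the first 1 kb of every first exon. GATA1 locations were in internal exons at 108 of 135 and in the last exon at 25 (18.5%; 12.4 to 26.1%), and TAL1 locations were in the last exon at 31 of 194 (16.0%; 11.1 to 21.9%), against 20.6% of those coding bases of the longest transcripts that lie over 1 kb from a start site. The exons that held them had a median length of 169 bp for GATA1 and 168.5 bp for TAL1, against a median of 190 bp over the same coding bases. Within 20 bp of an exon end were 33 of 135 GATA1 and 49 of 194 TAL1 locations. That share was not counted over all coding bases, and exons this short have many bases near an end. Closeness to exon ends is therefore not shown to be a trait of the locations. Along the coding sequence the median position was 54.6% of its length for GATA1 (quartiles, 26.4 and 75.5%) and 53.1% for TAL1 (26.8 and 73.5%). At 10 GATA1 and 17 TAL1 locations another protein-coding transcript of the gene skipped the exon or ended it earlier, and at 125 and 177 the base was exonic in every one that spans it.

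In 3' UTRs the locations were nearly all in the last exon, which held 120 of 121 for GATA1 and 210 of 211 for TAL1, against 99.5% of 3' UTR bases. GATA1 locations lay a median of 1058 bases after the stop codon and 881 before the end of the transcript, and TAL1 locations 881 after the stop codon and 899 before the end. Their positions along the 3' UTR had medians of 49.4% for GATA1 and 45.9% for TAL1. Starts of transcripts of other types (noncoding or retained-intron transcripts) were within 1 kb of 12 GATA1 and 27 TAL1 locations in coding exons and of 4 and 4 in 3' UTRs, and their part in the binding was not tested. Close to the 1 kb limit, members inside it were GATA1 in the 5' UTR of Arsa at 1033 bp and TAL1 in a coding exon of Ptger4 at 1019 bp, and exonic locations left out were GATA1 in the 3' UTR of Ndrg4 at 996 bp and TAL1 in a coding exon of Rec8 at 952 bp.

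Few genes had more than 1 exonic location of GATA1. In coding exons 122 of 128 genes had 1 location, 5 had 2 and 1 had 3. Angpt1, the ligand angiopoietin 1 of the receptor Tie2 that acts on vessels and blood stem cells, had GATA1 at chr15:42269866 in exon 8 of 9 and at 42355139 in exon 2, with TAL1 7 bp and 3 bp away. It had 5 TAL1 locations in coding exons, with 1 in exon 8 and 4 in exon 2 at 42355083, 42355142, 42355155 and 42355161. The cluster in exon 2 continued into the intron, to 10 TAL1 locations over 531 bp. The other genes with 2 GATA1 locations were Fignl1, an ATPase of recombination repair, Naa16, a subunit of an N-terminal acetyltransferase, Tmpo, a protein of the nuclear lamina, and 4930583H14Rik. In Naa16 the locations were far apart, in exons 4 and 14 of 20, and TAL1 lay only beside that in exon 4, 10 bp away.

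TAL1 was densest in the coding exons of Ppp1r15b and Angpt1, with 5 locations each. Ppp1r15b, the subunit that directs a phosphatase to the translation factor eIF2alpha, had them between chr1:135029993 and 135030148 in exon 1 of 2, at 1669 to 1824 bp from the start site, with GATA1 among them at 135030126. That GATA1 location stood 3.5 bp from a sense WGATAA in the aspartate frame. Fignl1 had 4 TAL1 locations, from chr11:11701061 to 11701475 in its last exon, interleaved with GATA1 at 11701240 and 11701389, and none of these 6 locations had WGATAA within 40 bp. Ahi1, which encodes a protein of the cilium base, had 3 TAL1 locations in exon 20 of 24, and the one at chr10:20774798 had 9 TAL1 peak pairs within 100 bp and GATA1 5 bp away. Kcnn4, the calcium-activated potassium channel of red cells, had 3 TAL1 locations in exon 3 of 9, at chr7:25162336, 25162413 and 25162455, and the nearest GATA1 location was 106 bp from the first. Atf2, a leucine zipper transcription factor, had 3 without WGATAA, of which that at chr2:73657005 had GATA1 3 bp away. Slc35a3 also had 3.

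The longest runs of exonic locations were TAL1 clusters in 3' UTRs. Ola1, which encodes an Obg-like ATPase, had 10 TAL1 locations from chr2:72930974 to 72931557, a span of 583 bp in its last exon, over 106 kb from a start site. Each had 4 to 6 TAL1 peak pairs within 100 bp, none had WGATAA within 40 bp, and a single GATA1 location, at 72931206, lay among them 7 bp from TAL1. Tmem184a, which encodes a membrane protein, had 9 from chr5:140280059 to 140280960, with GATA1 at 140280277 and 140280336, 59 bp apart, and these had 8 and 7 GATA1 peak pairs within 100 bp. Samd7 had 7 TAL1 locations from chr3:30664650 to 30664974 around its 3 GATA1 locations, which was the highest number of GATA1 locations in any 3' UTR, and all 3 had TAL1 under 40 bp away and carried the composites shown above. Maml3, a coactivator of Notch signalling, had 6 TAL1 locations over 394 bp from chr3:51492668, with GATA1 4 bp from 1 of them and no WGATAA within 40 bp of any. A further 5 genes had 4 TAL1 locations in the 3' UTR each, 12 had 3 and 17 had 2, and 89 had 1. In GATA1, 8 genes had 2 in the 3' UTR and 102 had 1.

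The 5' UTR locations were few and close to start sites, with a median of 2982.5 bp from the nearest for GATA1, and they were mostly in the second or a later exon. WGATAA lay within 40 bp of 7 of the 10 GATA1 and 6 of the 9 TAL1 locations. Of the first 6 locations with a site, by position, 4 are shown with their sites. The WGATAA of Ino80 lay outside its exon, which ends at chr2:119284002, and those of the others lay inside theirs. Capitals mark WGATAA.
Fam20b (chr1:158636214-158636243, minus strand): tcgtcaccacctgttccctgTGATAAgcca
Rabgap1l (chr1:162237630-162237659, minus strand): ttggtgtacacttcctgcagAGATAAgaga
Ino80 (chr2:119283994-119284023, plus strand): actgcacagctgcaaaatggAGATAAgtta
Mknk1 (chr4:115520876-115520905, plus strand): ctggctggacagagaccagcAGATAActcc
Fam20b, a xylose kinase of proteoglycan synthesis, and Mknk1, a kinase of the cap-binding factor eIF4E, had GATA1 without TAL1 under 40 bp. Rabgap1l, a GTPase-activating protein, and Ino80, the ATPase of a chromatin remodelling complex, had TAL1 without a final GATA1 location under 40 bp. Among 5' UTR locations without a final partner that close, some had a partner peak pair or MultiGPS location under 40 bp away. These were 2 of 7 for GATA1 and 4 of 6 for TAL1. TAL1 was under 40 bp from 3 of the 10 GATA1 locations, among them those in Klhdc8b, 16 bp apart, and Cd200r2, a receptor of myeloid cells, 15 bp apart. Mfsd2b, the sphingosine-1-phosphate exporter of red cells and platelets, had 2 TAL1 locations 67 bp apart with GATA1 over 40 bp away. Of the 10 GATA1 locations, 4 were within 1 kb of the start of a transcript of another type.

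Over all protein-coding genes, 246 of 22238 had an exonic GATA1 location (1.11%) and 286 an exonic TAL1 location (1.29%). Both factors were exonic in 129 genes, which is 52.4% of the GATA1 genes and 45.1% of the TAL1 genes. Of 84 genes in lists of erythroid and blood functions, 3 had an exonic GATA1 location and 4 an exonic TAL1 location, and of 35 genes in lists for brain, liver and muscle 1 had both. None of the 12 genes of the GATA and TAL1 complexes, 12 other erythroid transcription factors, 7 globin genes, 8 heme synthesis genes or 10 genes of iron and heme handling had one. Among the 14 red cell membrane genes, Spnb1, the beta spectrin of the red cell skeleton, had GATA1 at chr12:77697814, 830 bases into the 3' UTR, with a sense WGATAA inside the exon and TAL1 over 20 kb away.

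Among the 9 genes of cell cycle and clearance, Btg2, an inhibitor of proliferation, had GATA1 at chr1:135974180 and TAL1 at 135974142 in its last coding exon, without WGATAA within 40 bp. Bnip3l, the receptor that removes mitochondria from maturing red cells, had TAL1 at chr14:67618538 in exon 2 of 6, 3 bp from the exon's end, and the WGATAA 20.5 bp away, with TG upstream, lay outside the exon. Of the 12 progenitor and signalling genes, Cish, a feedback inhibitor of cytokine receptors, had TAL1 at chr9:107204204 in the 3' UTR, 114 bases before the transcript's end, with 1 peak pair within 100 bp and neither WGATAA nor GATA1 near. The control gene with locations was Mbp, which encodes myelin basic protein and shares its locus with a longer transcript known from blood cells, with 2 GATA1 and 3 TAL1 locations in its 3' UTR. A cell count or RNA level behind these genes is not in the lists, and the genes were not tested against the background.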

How the data were processed

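The authors aligned the reads to mm9 with Bowtie 1.00 (SOLiD) or BWA 0.6.2 and 0.7.9a (Illumina), after base calling with CASAVA 1.7 and bcl2fastq 2.15, kept uniquely mapped reads and merged replicates. Final locations are MultiGPS locations with a peak pair of the same factor within 100 bp. The deposited lists hold positions only, and by the methods those of GATA1 come from G1E-ER4 cells alone, although the labels tie the G1E library to them too. Repeated sequence is thus under-represented, by an amount not known here.

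Each position was classed by the GENCODE vM1 annotation on NCBIM37, the same build, in the order coding, 3' UTR, 5' UTR, intron, with 51733 protein-coding transcripts and 45946 start sites, and all positions were within the chromosome lengths. Windows reached 40 bp to either side, and a motif had to be wholly inside. The exon and gene named are those of the transcript with the longest coding sequence. Classes were compared by two-sided Fisher's exact tests, with p-values adjusted over 30 tests by the Benjamini-Hochberg method. Locations were treated as independent. Counting steps were tested on simulated data.

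The genes named are up to 5 per factor and class with most locations (ties for the last place up to 8 in all, otherwise without them), all listed genes with an exonic location, and the genes of the printed composites and 5' UTR sites, listed genes first and then by position. Some items that this rule names are not reported here. The other genes of 5' UTRs and those at the 1 kb limit were picked after their values were seen. Of 86 blood and 36 control genes listed, 84 and 35 were in the annotation, without Ahsp, Flvcr1 and Map2. The members and lists were chosen with earlier results of these data known. Alternatives were other distances to start sites, motifs, windows, partner and neighbor distances, a stricter peak pair, 1 location per cluster, all MultiGPS locations and another comparison class. Counting 1 gene per location was added after seeing the data. The software was scipy 1.17.1, Python 3.11.15, pysam 0.24.0, pandas 2.3.3, samtools 1.23.1, numpy 2.4.6 and matplotlib 3.10.9.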

Additional observations from a re-analysis of the deposited data

How the results depend on the processing

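No paired analysis was possible because the lists are pooled and carry no replicate, and for the same reason no library could be left out. Over 200 alternative odds ratios against introns or between exon classes, 0 passed an adjusted p of 0.05 by Fisher's exact test, and the smallest adjusted p was 0.142. The odds ratio of TG with TAL1 was between 2.02 and 2.99 under 4 alternatives, each with p under 0.05. The coding share of exonic locations, 50.8% for GATA1 and 46.9% for TAL1, had an odds ratio of 1.17 (p = 0.346, Fisher's exact test), and between 1.08 and 1.23 under 4 alternatives. Counts by class kept within 1.5 times, except in 5' UTRs, with 5 GATA1 and 5 TAL1 locations over 2 kb from start sites and 16 TAL1 locations over 500 bp. With every transcript of protein-coding genes, exonic locations numbered 328 for GATA1 and 540 for TAL1. Odds ratios that did not pass, and turned to the other side of 1, were as follows, with WGATAA as the site, and the cause was not tested. Coding exons against introns: TAL1 peak pairs were 0.976 with 1 location per cluster, 0.937 against locations outside genes, 0.845 with a pair within 20 bp, 0.943 with pairs counted within 50 bp and 0.999 over 2 kb from start sites. GATA1 E-boxes were 1.06 with 1 location per cluster and 1.14 within 20 bp, and TAL1 E-boxes 1.04 with 1 per cluster and 1.58 for the stricter CAGMTG. The site share of TAL1 was 0.844 within 20 bp, 0.994 with a pair within 20 bp and 0.966 over 500 bp from start sites. GATA1 next to TAL1 was 0.952 with 1 per cluster, 0.993 for peak pairs, 0.966 under 100 bp and 0.964 with a pair within 20 bp. GATA1 neighbors were 0.995 against locations outside genes and 0.977 under 1000 bp. In 3' UTRs against introns, the site share of GATA1 was 1.05 within 20 bp, 1.01 against locations outside genes and 1.07 by weight matrix, and that of TAL1 1.00 with 1 per cluster, 1.08 for the motif core and 1.03 by weight matrix. GATA1 neighbors were 0.944 against locations outside genes and 0.868 under 1000 bp. Between coding exons and 3' UTRs, the site share of GATA1 was 1.10 with 1 per cluster and 1.00 over 500 bp from start sites, and that of TAL1 0.935 for the motif core and 0.980 within 20 bp. TAL1 E-boxes were 1.21 for the stricter CAGMTG. TAL1 next to GATA1 was 0.949 under 20 bp, 0.961 with a pair within 20 bp and 0.996 over 2 kb from start sites, and GATA1 neighbors 0.833 with a pair within 20 bp.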

Other observations

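Peak pairs also lay in exons beside the final locations. Over 1 kb from start sites, GATA1 had 628 peak pairs in coding exons, 593 in 3' UTRs and 34 in 5' UTRs, and TAL1 had 879, 818 and 40. Of the MultiGPS locations in coding exons, 80.8% for GATA1 and 81.5% for TAL1 had a peak pair within 100 bp and so entered the final lists, against 80.7% and 86.1% of those in introns. In 3' UTRs it was 84.0% for GATA1 and 86.8% for TAL1.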
